A study of Mus musculus with 5 samples.

Results

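The integrin subunits described here were 9 genes, Itga1, Itga5, Itga8, Itga9, Itgav, Itgb1, Itgb3, Itgb5 and Itgb8, taken by name from the 31053 genes of the matrices. Their levels were read as UMIs (counted transcript molecules) per 1000000 UMIs, here CPM, in all 5 single-cell libraries and in 3 classes of cells set by other genes. Mesenchymal cells had Dcn, Col3a1 and Colec11 summing to 20 or more per 10000 UMIs, endothelial cells had UMIs of 3 or more of Pecam1, Cdh5, Kdr, Stab2 and Ptprb, and macrophages had UMIs of 3 or more of C1qa, C1qb, Csf1r and Adgre1. Cells that met more than 1 of these rules were put in no class.

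The libraries came from livers of male Rosa26mTmG;Col1a1-Cre mice on the C57BL/6J background, in which cells that have used the Col1a1 promoter driving Cre become GFP positive, so a GFP signal records past as well as present promoter use. All mice were injected at 2 weeks of age, with diethyl nitrosamine (DEN, 10 mg/kg), a liver carcinogen, or with saline. From the age of 6 weeks they were given, for 5 months, the Western alcohol diet (WAD, a liquid diet with ethanol at 3.5% by volume) after DEN, or chow after saline. Cells were sorted by GFP and by vitamin A autofluorescence (VitA), the optical sign of retinoid stores in quiescent hepatic stellate cells, into VitA+Col1a1+ and VitA-Col1a1+ libraries of chow mice, the same pair of DEN+WAD mice, and a VitA-Col1a1- library of DEN+WAD mice. Each group was 1 library, and the number of mice behind it was not given in the sources used here. Cells of a library are not replicates, so no p-value was computed. Intervals are 95% intervals for counting error only.

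Integrins are receptors made of 1 α and 1 β subunit that anchor cells to the extracellular matrix and pass force and signals across the membrane. The β1 subunit pairs with many α subunits, among them the collagen receptor subunit α1, the fibronectin receptor subunit α5, α8, which binds nephronectin and other RGD ligands, and α9, which binds tenascin-C, VCAM-1 and SVEP1. The αv subunit pairs with β1, β3, β5 or β8 to bind vitronectin, fibronectin and the latent form of TGF-β, and αv integrins of liver mesenchymal cells are known as activators of latent TGF-β in fibrosis.

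All 9 genes are protein coding. In the GENCODE annotation of GRCm38, the build of the files, the α members lie at chr13:114953096-115101964 on the minus strand (Itga1), chr15:103344286-103366763 on the minus strand (Itga5), chr2:12106632-12301922 on the minus strand (Itga8), chr9:118606690-118901003 on the plus strand (Itga9) and chr2:83724397-83806916 on the plus strand (Itgav). The β members lie at chr8:128685654-128733200 (Itgb1), chr11:104608000-104670476 (Itgb3) and chr16:33829665-33949338 (Itgb5), all on the plus strand, and at chr12:119158022-119238802 on the minus strand (Itgb8). The span of Itga1 holds Pelo and Gm49395 on its own strand, and 1 gene on its own strand also lies within the span of Itga5 (Mir6963) and of Itga8 (Gm37701), so reads from such shared stretches are uncertain. Genes on the opposite strand overlap Itga1, Itga8, Itga9 and Itgav, and no annotated gene overlaps the 4 β members.

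Promoter sequences (250 bases before the start and 50 after it, RefSeq, GRCm38.p6, printed 5′ to 3′ on the strand of the gene) were on hand for 8 of the 9 members, and Itgb3 had none. The 4 shown belong to Itga8, Itgb5 and Itgb8, whose levels were higher in mesenchymal cells of the VitA- gate under both treatments, and to Itga1, whose level was lower there. Capitals mark matches, on either strand, to any of 6 short motifs searched. The TEAD family was searched for by its known core GGAATG, and the GC box bound by SP factors was written as GGGCGG. The promoter element of the TATA-binding protein was spelled TATAAA, and the binding motif of the GATA family was spelled AGATAA. The response element of AP-1 was taken as TGACTCA, and the E-box of the basic helix-loop-helix factors as CACGTG. No match overlapped another.
Itga8, chr2:12301895-12302194, minus strand: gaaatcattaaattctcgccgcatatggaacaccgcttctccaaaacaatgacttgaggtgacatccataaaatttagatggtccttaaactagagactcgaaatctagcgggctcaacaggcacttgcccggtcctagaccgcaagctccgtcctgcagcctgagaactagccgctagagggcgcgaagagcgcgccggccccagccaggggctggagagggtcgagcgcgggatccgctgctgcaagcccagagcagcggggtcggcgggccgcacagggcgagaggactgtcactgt
Itgb5, chr16:33829415-33829714, plus strand: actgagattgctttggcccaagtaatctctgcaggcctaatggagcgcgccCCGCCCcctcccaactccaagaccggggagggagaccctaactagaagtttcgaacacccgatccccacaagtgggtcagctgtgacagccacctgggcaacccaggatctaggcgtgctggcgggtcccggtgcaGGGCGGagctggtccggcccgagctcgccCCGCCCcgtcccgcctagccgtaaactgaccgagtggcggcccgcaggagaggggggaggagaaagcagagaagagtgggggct
Itgb8, chr12:119238227-119238526, minus strand: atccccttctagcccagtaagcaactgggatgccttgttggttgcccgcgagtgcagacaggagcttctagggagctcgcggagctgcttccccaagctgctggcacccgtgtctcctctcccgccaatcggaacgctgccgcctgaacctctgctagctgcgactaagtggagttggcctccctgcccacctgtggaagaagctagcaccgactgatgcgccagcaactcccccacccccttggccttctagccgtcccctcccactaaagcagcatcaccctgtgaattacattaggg
Itga1, chr13:115101915-115102214, minus strand: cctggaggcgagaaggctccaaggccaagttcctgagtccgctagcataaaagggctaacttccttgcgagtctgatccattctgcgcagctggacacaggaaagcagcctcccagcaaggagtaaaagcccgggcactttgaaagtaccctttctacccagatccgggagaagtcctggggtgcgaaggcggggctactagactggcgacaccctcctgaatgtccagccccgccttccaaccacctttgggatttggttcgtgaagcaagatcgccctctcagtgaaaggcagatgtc
The Itgb5 window held 3 GC boxes and had a G+C content of 65.7%, and the windows of Itga8, Itgb8 and Itga1 held none of the 6 motifs. Among 32851 promoters of the same length, 35.7% held a GC box, 14.7% the TEAD motif, 13.6% the TATA box, 11.2% the GATA motif, 7.15% the E-box and 5.20% the AP-1 motif.

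The 5 libraries held between 259 (VitA+Col1a1+ chow) and 10481 cells (VitA+Col1a1+ DEN+WAD), with 6145748 to 149936344 UMIs in all and medians of 9105.5 to 24077 UMIs per cell. A total of 48 cell barcodes occurred in more than 1 library. Mesenchymal cells numbered 244 and 614 in the VitA+ and VitA- chow libraries, 10213 and 2182 in the VitA+ and VitA- DEN+WAD libraries, and 4672 in the VitA-Col1a1- library. Endothelial cells numbered 9, 36, 177, 440 and 2350 in the same order, and all 750 macrophages were in the VitA-Col1a1- library, where 829 cells met more than 1 rule. The RNA went against the Col1a1- label: the mesenchymal cells of that library had 2048 CPM of Col1a1, against 1128 in the VitA-Col1a1+ DEN+WAD library, and it is called here the library labelled VitA-Col1a1-. It also had the lowest depth per cell and 2454 CPM of the hepatocyte transcript Alb, against at most 174 elsewhere. Its matrix header names another release of the counting software than the rest, so the gate, the library and that release cannot be told apart.

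In mesenchymal cells, the α subunits were led by Itga1. Itga9 came next, save in VitA-Col1a1+ chow, where Itga8 (252 CPM) lay above it (171). These levels count 1 transcript end per UMI and are not divided by transcript length, so orders between genes hold on this scale only. Itga1, the collagen and laminin receptor subunit, had 798 CPM (776 to 822) in VitA+Col1a1+ chow, 499 (487 to 511) in VitA-Col1a1+ chow, 748 (743 to 752) in VitA+Col1a1+ DEN+WAD, 477 (471 to 484) in VitA-Col1a1+ DEN+WAD and 998 (989 to 1007) in the library labelled VitA-Col1a1-. The VitA+ libraries were thus both above the VitA- libraries of the Col1a1+ gate, and the library labelled Col1a1- was above all of them. Itga9 had 343 (328 to 359), 171 (164 to 178), 297 (294 to 300), 161 (157 to 165) and 251 (247 to 255) CPM in the same order. Here the VitA+ libraries were the highest, and the intervals of the VitA-Col1a1+ pair overlapped. Itga8, which marks contractile and mesangial-type mesenchyme in other organs, had 80.2 (73.1 to 87.8), 252 (243 to 260), 52.0 (50.8 to 53.2), 124 (120 to 127) and 188 (185 to 192). Its order was the opposite one, with both VitA+ libraries lowest, and its highest level was 4.84 times its lowest.

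Itgav, the shared α partner of β3, β5 and β8, was the most even member. It had 92.7 (85.1 to 101), 88.3 (83.5 to 93.4), 73.6 (72.2 to 75.0), 71.4 (68.8 to 74.1) and 98.5 (95.8 to 101) CPM, a range of 1.38 times. The intervals of the chow pair overlapped, as did those of the Col1a1+ DEN+WAD pair. Itga5, the RGD-dependent fibronectin receptor subunit, had the lowest level of the α members, with 9.96 (7.56 to 12.9), 12.5 (10.7 to 14.4), 10.1 (9.57 to 10.6), 15.6 (14.4 to 16.9) and 19.9 (18.6 to 21.1). The interval of VitA+ chow overlapped those of VitA- chow and of VitA+ DEN+WAD.

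Of the β subunits, Itgb1, the common partner of α1, α5, α8 and α9, had 793 (770 to 816), 587 (575 to 600), 741 (737 to 746), 567 (559 to 574) and 1030.4 (1022 to 1039) CPM, the order of Itga1. Itgb3, best known from the platelet and endothelial αIIbβ3 and αvβ3 receptors, had 98.8 (90.8 to 107), 3.89 (2.93 to 5.07), 73.2 (71.8 to 74.5), 16.9 (15.6 to 18.2) and 40.01 (38.3 to 41.8). No other member varied as much, with 25.4 times between VitA+Col1a1+ and VitA-Col1a1+ chow, the latter resting on 55 UMIs.

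Itgb5, which forms the vitronectin receptor αvβ5, had 158 (148 to 168), 514 (502 to 526), 164 (162 to 166), 397 (391 to 403) and 372 (367 to 377) CPM, so the VitA+ pair overlapped and lay below the other libraries. Itgb8, whose αvβ8 receptor presents latent TGF-β, was low throughout, with 1.89 (0.943 to 3.38), 24.5 (22.0 to 27.2), 6.36 (5.96 to 6.78), 28.2 (26.5 to 29.9) and 11.5 (10.5 to 12.4). The first of these rested on 11 UMIs.

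**Figure D1:**
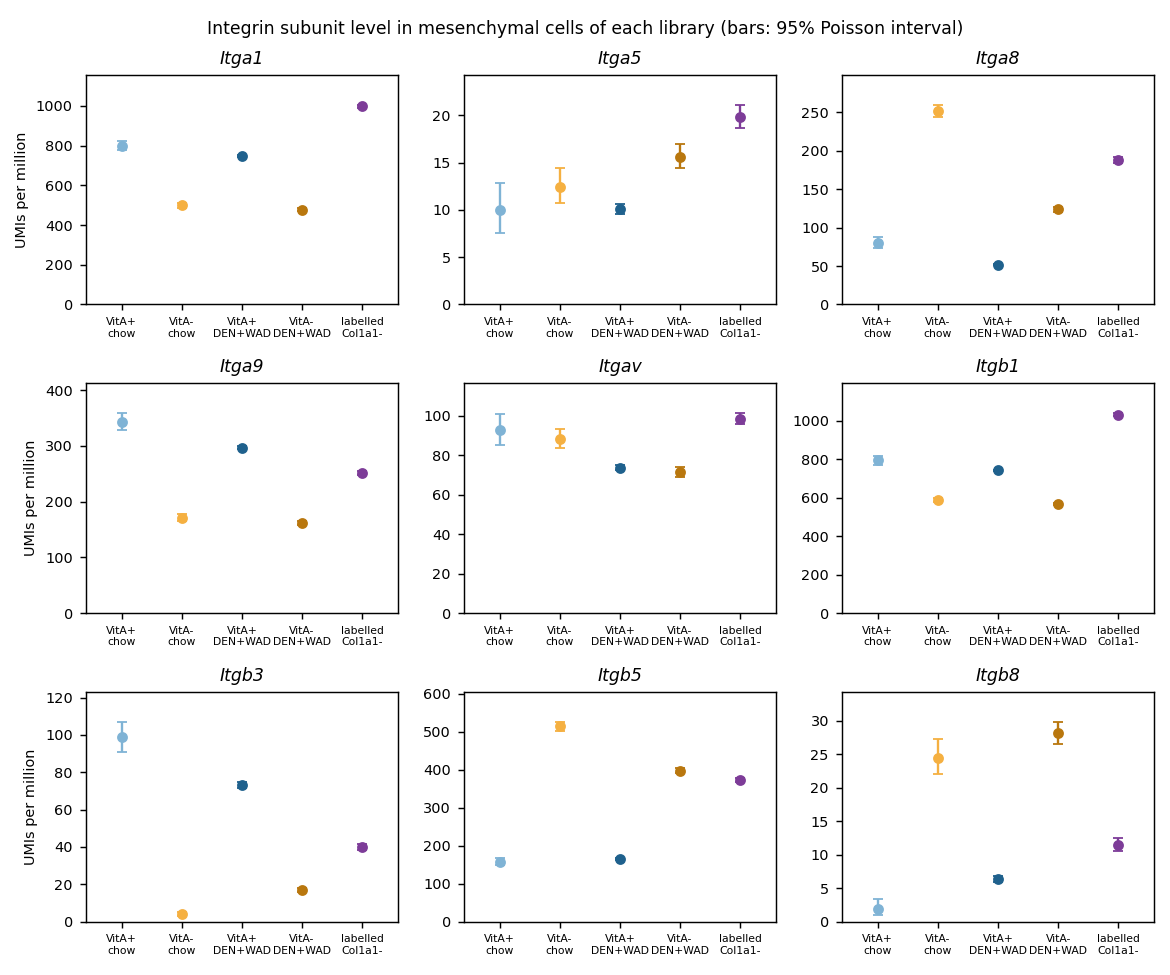
CPM (vertical axes, from 0) of each integrin subunit in the mesenchymal cells of the 5 libraries, 1 point per library with its 95% Poisson interval. Itga1, Itga9 and Itgb3 are higher in the 2 VitA+ libraries than in the 2 VitA-Col1a1+ libraries, and Itga8, Itgb5 and Itgb8 are lower.

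The make-up of the member UMIs differed between the gates mostly on the β side. These are shares of UMIs, again not divided by length. In VitA+ mesenchymal cells Itgb1 made up 75.4% (chow) and 75.3% (DEN+WAD) of the UMIs of the 4 β members, Itgb5 15.0% and 16.7%, and Itgb3 9.4% and 7.43%. In VitA-Col1a1+ mesenchymal cells Itgb1 made up 52.0% and 56.2%, Itgb5 45.5% and 39.4%, and Itgb3 0.344% and 1.67%. The sum of the 4 differed by less across these libraries, with 1051 and 985 CPM in the VitA+ pair and 1130.0 and 1009 in the VitA- pair. On the α side Itga1 held 60.3% and 63.4% in the VitA+ pair and 48.8% and 56.2% in the VitA- pair, while Itga8 held 6.06% and 4.40% against 24.6% and 14.6%.

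**Figure D2:**
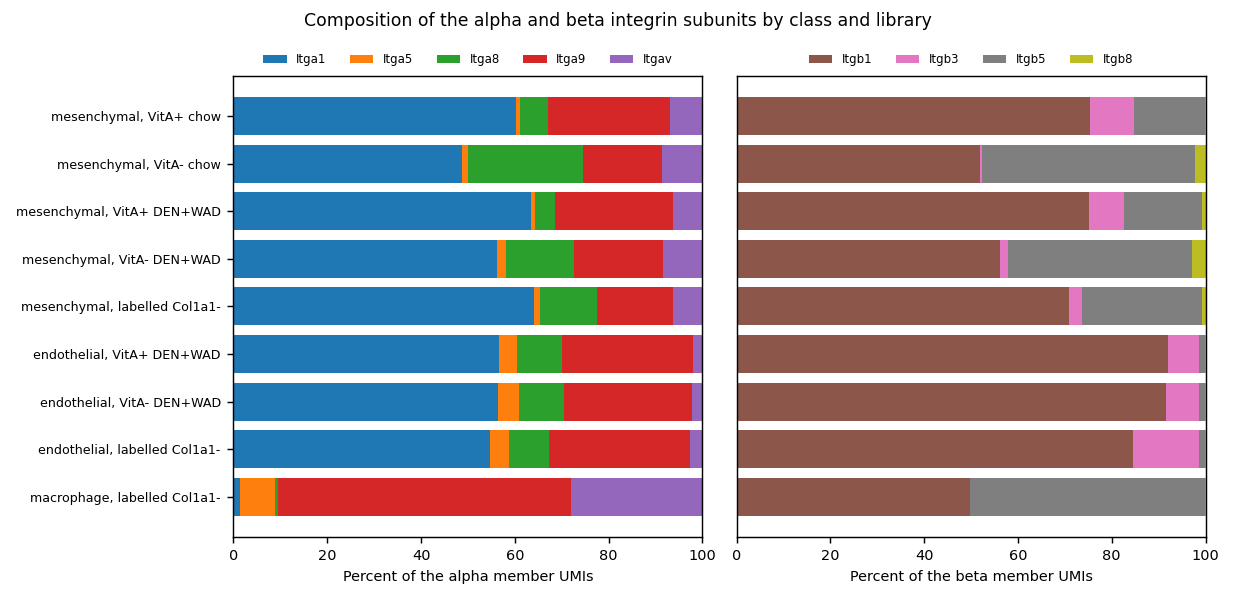
Share of each gene (horizontal axis, percent) in the UMIs of the 5 α members and of the 4 β members, for mesenchymal cells of the 5 libraries, endothelial cells of 3 libraries and macrophages of 1. Itgb5 takes a wide band in VitA- mesenchymal cells and macrophages and a thin one in endothelial cells, and Itga1 is nearly missing from macrophages.

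The VitA- and VitA+ gates of the Col1a1+ cells asked how the subunits differed between cells without and with retinoid autofluorescence. With a gene called past the fold where its ratio was at least 1.5 or at most 1/1.5 and its level at least 10 CPM in either arm, 3 members were higher and 3 lower in VitA- than in VitA+ mesenchymal cells of chow mice, where 18.6% of all genes tested were called higher and 11.8% lower. Itga8 was 3.14-fold (2.85 to 3.46), Itgb5 3.26-fold (3.04 to 3.50) and Itgb8 13.0-fold (7.15 to 26.2) higher. The ratio of Itga1 was 0.625 (0.602 to 0.649), of Itga9 0.498 (0.470 to 0.529) and of Itgb3 0.0394 (0.0293 to 0.0520). Itgb1, at 0.741, Itgav, at 0.952, and Itga5, at 1.25, were not past the fold.

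In DEN+WAD mice the same 6 members were past the fold in the same directions, and Itga5 joined the higher ones at 1.55 (1.41 to 1.70), which made 4 higher and 3 lower. Of all genes tested there, 10.4% were called higher and 4.83% lower. Ratios were 2.38 (2.30 to 2.47) for Itga8, 2.42 (2.37 to 2.47) for Itgb5 and 4.43 (4.06 to 4.84) for Itgb8, and 0.638 (0.629 to 0.648), 0.542 (0.528 to 0.557) and 0.231 (0.213 to 0.249) for Itga1, Itga9 and Itgb3. With scaling by trimmed mean of M-values (TMM), which moved all ratios of this pair by -0.11 on the log2 scale, Itga5 came short of the fold, and the split of all genes called went from 871 higher and 405 lower to 765 and 568. Whole libraries gave 7 members past the fold in chow (28.5% of all genes in either direction) and 6 in DEN+WAD (19.2%, 1282 genes higher and 390 lower, or 959 and 734 under TMM). A whole-library level cannot tell fewer cells of a class from less RNA per cell.

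**Figure D3:**
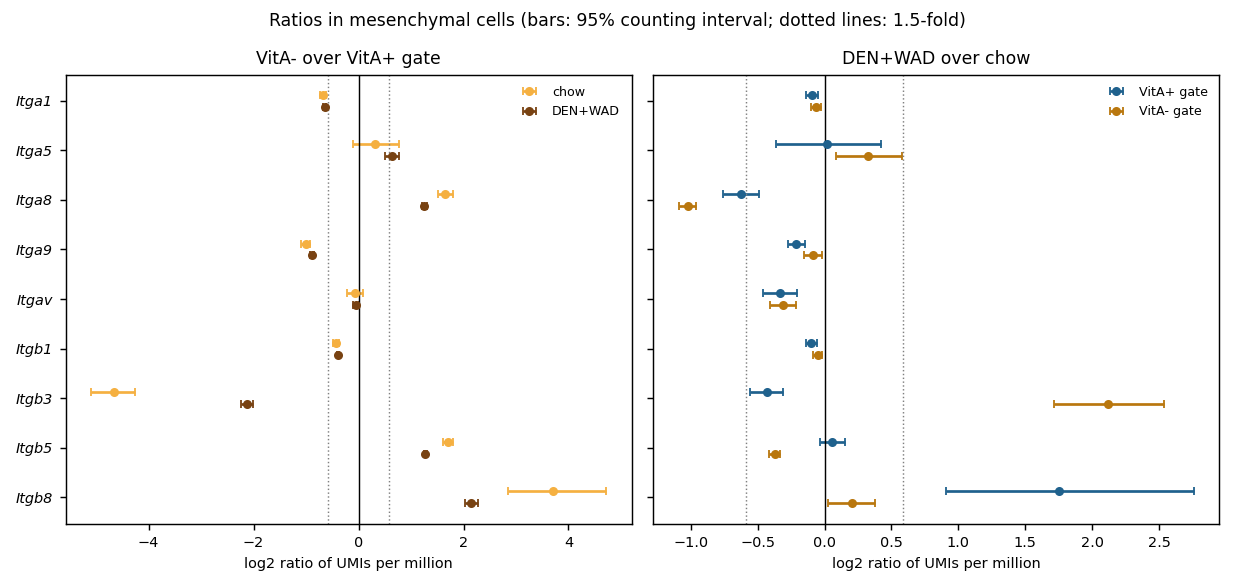
Log2 ratio of CPM (horizontal axes) of each subunit in mesenchymal cells, VitA- over VitA+ gate on the left and DEN+WAD over chow on the right, with 95% counting intervals and dotted lines at 1.5-fold. The gate ratios of chow and DEN+WAD lie on the same side of 0 for each member. In the DEN+WAD ratios of the 2 gates, Itgb3 and Itgb5 lie on opposite sides of 0, with the VitA+ interval of Itgb5 holding 0.

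DEN+WAD was then compared with chow within each gate. In VitA+ mesenchymal cells 8 of the 9 members could be tested, and 0 were higher and 1 lower, beside 3.52% and 8.11% of all genes. That member was Itga8, with a ratio of 0.648 (0.590 to 0.713). The ratio of Itgb3 was 0.741 (0.681 to 0.807) and of Itgav 0.793 (0.727 to 0.866), while Itga1 at 0.937, Itgb1 at 0.935, Itga9 at 0.865, Itgb5 at 1.04 and Itga5 at 1.01 were close to 1. Itgb8 stayed below 10 CPM in both libraries, with a ratio of 3.37 (1.87 to 6.77). TMM scaling moved all ratios of this pair up by 0.16 on the log2 scale. It left Itga8 at 0.722, short of the fold, turned the direction of Itga1 (1.04) and Itgb1 (1.04), and changed the split of all genes called from 290 higher and 669 lower to 684 and 360. In the whole libraries 0 members were past the fold (13.4% of all genes, 287 higher and 834 lower, or 755 and 426 under TMM).

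In VitA- mesenchymal cells Itgb3 was higher in DEN+WAD at 4.33-fold (3.29 to 5.81) and Itga8 lower at 0.492 (0.471 to 0.514), 1 member in each direction beside 5.71% and 14.0% of all genes. The other 7 were not past the fold, with ratios from 0.772 (Itgb5) to 1.25 (Itga5). Under TMM, which moved these ratios by 0.15 on the log2 scale, the same counts were found and the ratios of Itga1 (1.06), Itga9 (1.04) and Itgb1 (1.07) turned, while the split of all genes went from 498 higher and 1226 lower to 813 and 791. In the whole libraries 2 members were past the fold (20.0% of all genes, 747 higher and 1063 lower, or 904 and 856 under TMM).

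The numbers of cells by marker pattern also differed between the VitA- libraries, and their part in these ratios was not tested. Of the 614 mesenchymal cells of VitA-Col1a1+ chow, 31 carried UMIs of 3 or more stellate markers (Lrat, Reln, Ecm1, Hgf, Colec10, Rgs5) and of no other list at that number, 64 likewise of fibroblast markers (such as Cd34, Clec3b, Dpt and Mfap4) and 503 of more than 1 list, contractile markers included. In VitA-Col1a1+ DEN+WAD these numbers were 1164, 139 and 815 of 2182 cells. In the VitA+ gate 236 of 244 and 9759 of 10213 cells met the stellate list alone. The summed level of the 6 stellate markers in mesenchymal cells was 2206 CPM in VitA- chow, 8047 in VitA- DEN+WAD and 20207 and 18527 in VitA+ chow and DEN+WAD, with no marker at 0.

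Of the 55 Itgb3 UMIs of VitA- chow mesenchymal cells, 42 came from the 31 stellate-marked cells, a level of 77.0 (55.5 to 104) CPM, and the 503 cells on more than 1 list had 0.829. Stellate-marked cells of VitA- DEN+WAD had 30.1 (27.6 to 32.7). Within stellate-marked cells the DEN+WAD to chow ratio of Itgb3 in the VitA- gate was therefore 0.391 (0.285 to 0.548), the reverse of the ratio over all mesenchymal cells, and in the VitA+ gate 0.755 (0.694 to 0.824). Itgb5 also turned there, from 0.772 (0.751 to 0.794) to 1.54 (1.24 to 1.94), and so did Itga8, to 1.17 (0.841 to 1.69), an interval that holds 1. The chow arm of these VitA- ratios held 31 cells.

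Between the gates, the ratios of Itgb3, Itgb5, Itga8, Itgb8, Itga9, Itga1 and Itgb1 lay nearer to 1 in stellate-marked cells of DEN+WAD mice than in all their mesenchymal cells, while those of Itga5 and Itgav lay farther from it. The stellate-marked VitA- to VitA+ ratio was 0.403 (0.370 to 0.439) for Itgb3, 0.627 (0.605 to 0.649) for Itga9, 0.749 for Itga1, 0.781 for Itgb1, 0.942 for Itgav, 1.48 (1.43 to 1.53) for Itgb5, 1.497 (1.41 to 1.59) for Itga8, 1.66 for Itga5 and 3.37 (2.97 to 3.81) for Itgb8. In chow, with 31 VitA- cells, the interval held 1 for Itgb3 (0.556 to 1.07), Itga8 (0.544 to 1.12), Itgb5 (0.772 to 1.23) and Itgb8 (0.203 to 8.65), and Itga9 alone was past the fold at 0.578 (0.471 to 0.701).

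Fibroblast-marked cells were compared with stellate-marked cells of the same VitA- library, since the VitA+ libraries held 0 (chow) and 1 (DEN+WAD) of them. In VitA- DEN+WAD they had 677 CPM of Itgb5 against 234 in stellate-marked cells, a ratio of 2.89 (2.73 to 3.05), with 2.37 (2.13 to 2.63) for Itga8 and 2.18 (1.75 to 2.69) for Itgb8. Itga1 was at 124 against 559, a ratio of 0.221 (0.198 to 0.247), Itgb1 at 0.590 and Itga9 at 0.572. Itgb3 had 1.12 against 30.1 CPM there and 1.79 against 62.9 in the library labelled VitA-Col1a1-. In the 64 fibroblast-marked cells of VitA- chow it had 0 UMIs, which allows up to 2.21 CPM. Itgav was even again, with 68.8 and 69.0 in the DEN+WAD pair of subsets. The 815 cells on more than 1 list in VitA- DEN+WAD had 524 CPM of Itgb5, 166 of Itga8, 35.0 of Itgb8 and 5.74 of Itgb3. These lay nearer to the fibroblast-marked levels, while Itga1 (444) and Itgb1 (593) lay nearer to the stellate-marked ones. In VitA- chow the 503 such cells had 533 of Itgb5 against 525 in fibroblast-marked cells. In the library labelled VitA-Col1a1- their Itgb5 (402) lay nearer to the stellate-marked level (285).

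**Figure D4:**
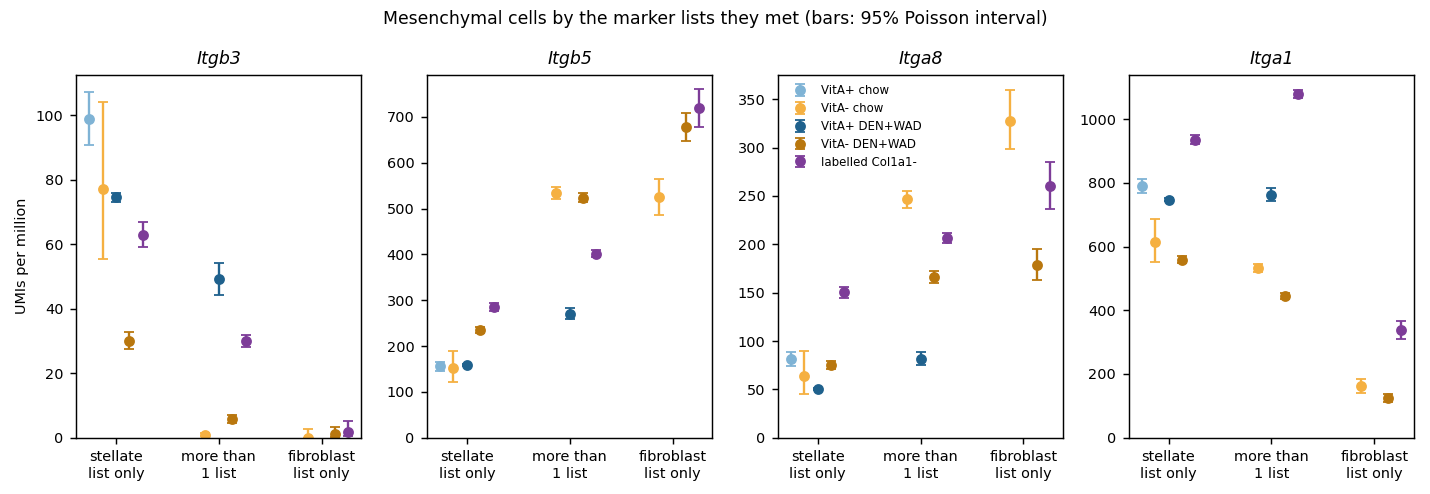
CPM (vertical axes, from 0) of Itgb3, Itgb5, Itga8 and Itga1 in mesenchymal cells that met the stellate list only, more than 1 list, or the fibroblast list only, by library, with 95% Poisson intervals and sets under 20 cells left out. Itgb3 and Itga1 are lowest in the fibroblast-marked cells of each library with such cells plotted, and Itgb5 is highest there, save in VitA- chow, where the 503 cells on more than 1 list lie as high.

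The library labelled VitA-Col1a1- was compared with VitA-Col1a1+ within DEN+WAD. In mesenchymal cells 5 members were higher and 1 lower, beside 10.6% and 10.0% of all genes. Itga1 was 2.09-fold (2.06 to 2.13), Itgb3 2.37-fold (2.17 to 2.59), Itgb1 1.82-fold (1.79 to 1.85), Itga9 1.56-fold (1.51 to 1.61) and Itga8 1.52-fold (1.47 to 1.57) higher, and Itgb8 had a ratio of 0.407 (0.367 to 0.450). TMM scaling, with a shift of -0.04, took Itga8 to 1.48, short of the fold, which left 4 higher, and the split of all genes called from 914 higher and 866 lower to 806 and 971. The median log2 ratio was 0.60 over the 9 members and 0.06 over all 8649 genes tested. In stellate-marked cells, 1837 and 1164 in number, the ratios were 1.67 for Itga1, 2.09 for Itgb3, 1.58 for Itgb1 and 1.99 for Itga8, and Itga9 was at 1.44, while Itgb5 turned from 0.937 to 1.22. Over whole libraries 2 members were past the fold (27.1% of all genes).

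Across classes, endothelial cells of the library labelled VitA-Col1a1- had 754 (741 to 766) CPM of Itga1 and 520 (510 to 531) of Itgb1. Itga9 was at 415 (406 to 424), Itga8 at 118 (114 to 123) and Itgb3 at 86.9 (82.8 to 91.2). Itga5 was at 56.6 (53.3 to 60.1), Itgav at 36.7 (34.0 to 39.5) and Itgb5 at 7.68 (6.48 to 9.03). Itgb8 was at 0.631 (0.326 to 1.10). Against mesenchymal cells of the same library 3 members were higher and 5 lower, beside 28.8% and 22.2% of all genes. Itga5 was 2.85-fold (2.61 to 3.11), Itgb3 2.17-fold (2.04 to 2.32) and Itga9 1.65-fold (1.61 to 1.70) higher. Itgb5 was at 0.0206 (0.0174 to 0.0243), Itgb8 at 0.0551, Itgav at 0.373, Itgb1 at 0.505 and Itga8 at 0.629. In the VitA-Col1a1+ DEN+WAD library 4 were higher and 3 lower, beside 35.8% and 21.1%, with Itga5 at 3.94, Itgb3 at 2.47, Itga9 at 2.41 and Itga1 at 1.68, and Itgb5 again at 0.0206. TMM scaling moved the ratios of that library by -0.27 on the log2 scale, took Itga1 to 1.40, short of the fold, turned Itga8 (from 1.12 to 0.934) and changed the split of all genes called from 3363 higher and 1983 lower to 2449 and 2711. In the library labelled VitA-Col1a1- the shift was -0.14 and the same number of members was past the fold.

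Levels of RNA that belongs to another class give a measure of free RNA and mixed barcodes. The stellate transcripts Lrat and Reln in endothelial cells were at 1.12% to 4.52% of their mesenchymal level across the libraries, and Itgb5 in endothelial cells was at 0.306% to 4.21% of its own. Library by library, Itgb5 was at 0.306% in VitA- chow (Lrat 3.13%, Reln 1.61%) and 2.06% in VitA- DEN+WAD (Lrat 1.67%, Reln 2.38%). The library labelled VitA-Col1a1- had 2.06% (Lrat 4.52%, Reln 2.15%). In VitA+ DEN+WAD it was at 4.21%, on 11 UMIs, above Lrat (1.12%) and Reln (1.97%). Itga8 in endothelial cells was at 35.7% in VitA- chow, 62.9% in the library labelled VitA-Col1a1-, 112% in VitA- DEN+WAD and 265% in VitA+ DEN+WAD, above that measure in each. Within the class, 1525 sinusoidal-marked cells (3 or more of Clec4g, Lyve1, Fcgr2b, Oit3, Gpr182 and Stab1) of the library labelled VitA-Col1a1- had 138 CPM of Itga8, 779 of Itga1 and 97.2 of Itgb3. The 52 vascular-marked cells (Vwf, Sox17 and the like) had 2.94, 332 and 5.88, and Itga6, the laminin receptor subunit, was at 179 in them against 59.1. The Itga8 ratio of vascular- to sinusoidal-marked cells was 0.0214 (0.000540 to 0.119), on 1 UMI in the former.

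Endothelial Itgb3 differed between libraries. It had 37.7 (28.8 to 48.5) CPM in VitA+ DEN+WAD, 41.7 (36.8 to 47.0) in VitA- DEN+WAD and 86.9 in the library labelled VitA-Col1a1-, so the last lay above the others, whose intervals overlapped. Itga5 (57.2, 61.5 and 56.6), Itga9 (401, 387 and 415) and Itga1 (813, 804 and 754) were closer together in the same 3 libraries.

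Macrophages of the library labelled VitA-Col1a1- had 293 (284 to 303) CPM of Itgb1, 296 (286 to 306) of Itgb5, 177 (169 to 185) of Itga9, 78.9 (73.9 to 84.2) of Itgav and 21.1 (18.5 to 23.9) of Itga5. The remaining members were at 4.03 (Itga1), 1.54 (Itga8), 0.857 (Itgb3) and 0.343 (Itgb8). Against mesenchymal cells 0 members were higher and 5 lower, beside 20.8% and 40.5% of all genes: Itga1 at 0.00403 (0.00296 to 0.00537), Itga8 at 0.00819, Itgb3 at 0.0214, Itgb8 at 0.0299 and Itgb1 at 0.285. TMM moved these ratios by 0.27 and left 5 members past the fold, with a split of all genes of 1906 higher and 3706 lower before and 2520 and 2934 after. Lrat and Reln were at 0.547% and 0.601% of their mesenchymal level in these cells, so Itga1 at 0.403% did not exceed the free RNA. Kupffer-marked (428 cells) and monocyte-marked (63 cells) macrophages had 282 and 314 CPM of Itgb5, a monocyte to Kupffer ratio of 1.11 (0.973 to 1.27), and 194 and 152 of Itga9, a ratio of 0.785 (0.648 to 0.945).

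**Figure D5:**
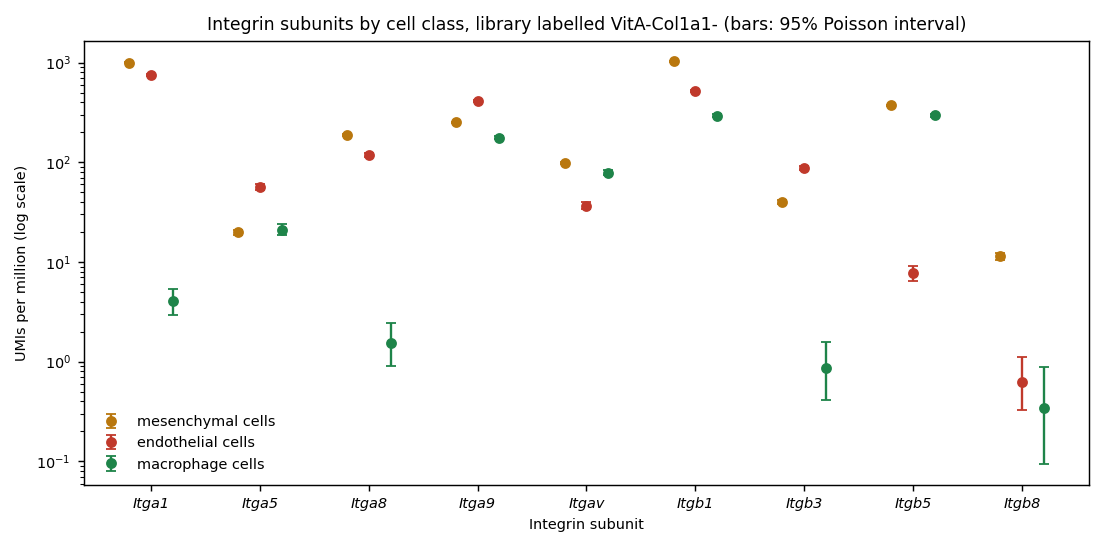
CPM (vertical axis, log scale) of each subunit in the 4672 mesenchymal, 2350 endothelial and 750 macrophage cells of the library labelled VitA-Col1a1-, with 95% Poisson intervals. Itgb5 is far lower in endothelial cells than in the other classes, and Itga1, Itga8 and Itgb3 are far lower in macrophages.

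Shares of cells with a UMI were compared after thinning each cell to 2000 UMIs, which left out 3, 8, 149, 54 and 679 of the mesenchymal cells for their lower depth. Itgb5 was then detected in 25.7% (20.3 to 31.7) of VitA+ chow, 55.8% (51.7 to 59.8) of VitA- chow, 26.4% (25.6 to 27.3) of VitA+ DEN+WAD, 44.7% (42.6 to 46.9) of VitA- DEN+WAD and 44.1% (42.6 to 45.7) of the mesenchymal cells of the library labelled VitA-Col1a1-, and in 1.80% of its endothelial cells, which serve as the background. Before thinning, with median depths of 24306, 22530.5, 13286, 17509 and 10652 UMIs per mesenchymal cell and 7890 per endothelial cell, these shares were 93.9%, 97.4%, 82.6%, 92.3% and 76.1%, and 5.70% in the endothelial cells. Itgb3 was detected in 14.9% (10.7 to 20.1), 0.990% (0.364 to 2.14), 13.4% (12.8 to 14.1), 3.71% (2.95 to 4.61) and 7.04% (6.26 to 7.88) of thinned cells, in 15.9% (14.4 to 17.5) of endothelial cells and in 0.294% of macrophages of the last library. Unthinned, the mesenchymal shares of Itgb3 were 77.5%, 4.56%, 55.1%, 17.9% and 21.7%. In the 5 mesenchymal sets 31 of 45 thinned shares were at least 10%, and 41 of 45 without thinning.

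Of the 17 other integrin subunits, 11 reached 10 CPM in a library or class and 6 (Itga3, Itga10, Itgad, Itgae, Itgb4 and Itgb6) did not. Macrophages carried the leukocyte subunits, with 254 CPM of Itgb2, 171 of Itgal, 108 of Itgax, 95.4 of Itga4, 15.9 of Itgb7 and 11.2 of Itgam. Itga6 was at 64.4 to 110 in endothelial cells and at most 2.96 in mesenchymal cells. Itga7 and Itga11, laminin and collagen receptor subunits, were at 24.1 and 18.1 in VitA- chow mesenchymal cells, against 0.687 and 0.172 in VitA+ chow. Itga2 reached 13.4 in mesenchymal cells of the library labelled VitA-Col1a1-, where it was 7.60-fold (5.93 to 9.86) higher than in VitA-Col1a1+ DEN+WAD. At the level that was tested, 6 of these subunits were higher and 2 lower in macrophages than in mesenchymal cells of that library, where 20.8% of all genes were called higher and 40.5% lower.

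Itga2b, the platelet αIIb subunit that pairs with β3, was at 50.5 CPM in VitA+ chow and 34.3 in VitA+ DEN+WAD mesenchymal cells, 14.7 and 21.2 in the VitA- pair, and 11.8 in the library labelled VitA-Col1a1-. Its VitA- to VitA+ ratio was 0.291 (0.243 to 0.349) in chow and 0.617 (0.573 to 0.664) in DEN+WAD. In stellate-marked cells the ratio was not past the fold, at 0.807 (0.498 to 1.25) in chow, with 31 VitA- cells. It was 0.868 (0.794 to 0.947) in DEN+WAD. Other platelet genes were at or near 0 in mesenchymal cells, with no more than 2 UMIs of Ppbp, Gp9 or Gp1ba in any library. Pf4 was at 29.8 to 90.5 CPM in them.

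Among 23 genes of matrix and TGF-β ligands, 12 were higher and 5 lower in VitA- than VitA+ mesenchymal cells of chow. Of all genes tested, 18.6% were called higher and 11.8% lower. The median log2 ratio was 0.68 over the 22 ligand genes tested against 0.06 over all genes. TMM scaling took Adamts1 to 1.497, short of the fold, which left 11 higher. The largest ratios were those of Svep1 (226 against 1.20 CPM), an α9 ligand, of Tgfb3 (100.1 against 5.15) and of Col1a1 (1922 against 103), a ligand chain of α1. In DEN+WAD 10 of 21 were higher and 1 lower, beside 10.4% and 4.83% of all genes, at a median of 0.34 against 0.02. Svep1, Tgfb3 and the vitronectin gene Vtn (206 against 49.0) were in front. Within the VitA+ gate DEN+WAD left 1 of 19 higher (Col1a1, 307 against 103) and 1 lower, beside 3.52% and 8.11% of all genes. The lower one was Lrrc32 (162 against 261), a surface carrier of latent TGF-β. Tnc, at 1.46, was next in size, and the median was 0.06 against -0.05. Under TMM, tried for both lists after the data were seen, the Lrrc32 call was lost (0.693) and Tnc, Vcam1, Postn and Tgfb2 passed the fold, which made 5 higher and 0 lower. Within the VitA- gate 2 of 22 were higher and 8 lower, beside 5.71% and 14.0% of all genes. The median was -0.48 against -0.08. TMM scaling took Vtn (0.706) short of the fold and Emilin1 (1.65) past it, which made 3 higher and 7 lower. Npnt, the nephronectin ligand of α8, was at 34.3 in VitA- chow and at 0.530 in VitA- DEN+WAD, where Svep1 was at 79.6 against 226 and Vcam1, an α9 and α4 ligand, at 340 against 148. In the library labelled VitA-Col1a1-, 11 of 22 were higher and 3 lower than in VitA-Col1a1+, beside 10.6% and 10.0% of all genes. They were led by Spp1 (167 against 4.90), Col4a2 (1102 against 292) and Col4a1 (2267 against 713). Spp1 in that library was also at 162 in endothelial cells and 115 in macrophages. The part of free RNA in it was not tested. Across classes of that library, 2 ligand genes were higher and 17 lower in endothelial than in mesenchymal cells, beside 28.8% and 22.2% of all genes, at a median log2 ratio of -4.43 against 0.11. In macrophages 2 were higher and 19 lower, beside 20.8% and 40.5%, at -6.94 against -0.32.

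The 23 intracellular partners link the β tails to actin and signalling. In chow 6 of 21 tested were higher and 6 lower in VitA- mesenchymal cells, beside 18.6% and 11.8% of all genes. Their median log2 ratio was -0.18 against 0.06 over all genes. TMM scaling took Actn1 to 1.49, short of the fold, which left 5 higher and 6 lower. Tln2, a talin, was at 59.9 CPM in VitA- chow against 437 in VitA+ chow, and Lims2 and Parvb, of the ILK complex, were at 19.5 against 4.64 and 14.6 against 5.67. In DEN+WAD 2 of 20 were higher and 3 lower, beside 10.4% and 4.83% of all genes, at a median of -0.11 against 0.02. Apbb1ip was at 12.0 against 0.333, Lims2 at 13.0 against 4.61 and the kindlin Fermt2 at 816 against 1426. TMM scaling added Lims1 (0.663), which made 4 lower. Within the VitA+ gate DEN+WAD gave 0 higher and 2 lower (Src, 0.617, and Pxn, 0.634) of 18, beside 3.52% and 8.11% of all genes. Kank2 was next at 0.680, and the median was -0.03 against -0.05. The calls of Src and Pxn were both lost under TMM, at 0.688 and 0.706. Within the VitA- gate DEN+WAD gave 2 of 21 higher and 2 lower, beside 5.71% and 14.0% of all genes. The median was 0.03 against -0.08, with Tln2 at 3.16-fold, Tns1 at 0.541 and Parvb at 0.582. In the library labelled VitA-Col1a1-, 6 of 20 were higher and 0 lower than in VitA-Col1a1+, beside 10.6% and 10.0% of all genes. The higher ones were led by Lims2 (2.63), Vcl (2.27) and Actn1 (2.00), and the median was 0.38 against 0.06. TMM scaling took Tln1 to 1.46, short of the fold, which left 5 higher and 0 lower.

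For each member the genes most like it were sought among 10619 genes by the mean absolute difference of centred log2 levels over 9 sums of cells (5 mesenchymal, 3 endothelial and 1 macrophage), which share libraries and treatment. The nearest gene was Nid1 for Itga1, at 0.35, followed by Nr2f2 (0.38) and Tmem204 (0.40), and Rhoj for Itga8, at 0.27, followed by Khdrbs3 (0.34) and Ppic (0.35). Itgb5 was nearest to Timp2 (0.37), Ckb (0.37) and Lpl (0.41), and Itgb3 to Ackr1 (0.38), Dnaja4 (0.49) and Robo1 (0.52), so Itgb3 had the least close neighbours. Itgb8 was nearest to Plcxd3 (0.15), Wt1 (0.18) and Fam13c (0.18). The more even members had closer neighbours, among them Tpmt (0.09), Diaph2 and Rasa3 for Itgav, Papss1 (0.12), Zbtb8a and Cfap36 for Itgb1, Sp100 (0.12), Nlk and Itpr2 for Itga9, and Nras (0.15), Ap2s1 and Sptlc2 for Itga5.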

How the data were processed

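Data were single-cell 3′ RNA-seq UMI counts from 5 mouse liver libraries, as filtered matrices deposited by the authors. Per the labels, reads were aligned to mm10 with Cell Ranger 3.1.0. The file headers name 3.1.0 for 4 libraries and 6.1.2 for the library labelled VitA-Col1a1-. Both the 3′ v3.1 and v2 kits are named in the labels. The paper reports that cells were assessed for quality with a barcode rank graph. A further filter on cells before deposit is not given in the sources used here.

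UMIs were summed over the cells of each library or class and given as UMIs per 1000000 (CPM) with exact Poisson intervals. Ratios have exact binomial intervals conditional on the sum of both counts, and shares have Clopper-Pearson intervals, all at 95%. No doublet caller was run: cells that met more than 1 class rule were left out. Genes were tested at 10 CPM or more in either arm and called past 1.5-fold. There was no replicate, so there is no p-value. A count of 0 allows up to 3 UMIs. Likeness used log2(CPM + 5) over sums of 50 or more cells. The members, lists and markers were chosen with earlier results of these data known. All members were named, other subunits at 10 CPM or more, and of the ligand and partner lists the 3 with the largest log2 ratio per comparison between libraries. The calls and intervals were tested on simulated data. Positions are from GENCODE (31011 of 31053 identifiers matched) and promoters from RefSeq. Alternatives covered the fold, TMM scaling, weighting of cells, depth limits, the 5 CPM minimum, shared barcodes, class rules and stellate-marked cells, and TMM scaling for the ligand and partner lists was added after seeing the data. Tools were Python 3.11.15, numpy 2.4.6, scipy 1.17.1, pandas 2.3.3, matplotlib 3.10.9, R 4.3.3 and edgeR 4.0.16 (TMM factors only).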

Additional observations from a re-analysis of the deposited data

Results flagged for a closer look

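The DEN+WAD to chow ratio of Itgb3 in mesenchymal cells was 0.741 in the VitA+Col1a1+ gate and 4.33 in the VitA-Col1a1+ gate, so the ratios lay on opposite sides of 1. The difference between the gates was not tested, as each arm was 1 library. The VitA- chow arm rested on 55 UMIs, of which 42 came from the 31 stellate-marked cells, and with stellate-marked cells only the VitA- ratio was 0.391.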

How the results depend on the processing

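Counts of members past the fold were within 1.5 times the reported count in 92 repeats with another setting and outside it in 13. At a 2-fold threshold they were 0 (VitA+ DEN+WAD against chow, mesenchymal cells), 1 (VitA- DEN+WAD against chow, whole library), 4 (gates in chow, whole library), 4 (gates in DEN+WAD, mesenchymal cells), 3 (library labelled VitA-Col1a1- against VitA-Col1a1+, mesenchymal cells) and 5 (endothelial against mesenchymal cells, same library), since the stricter threshold admits fewer genes. With a mean over cells, 1 member (VitA+) and 4 members (VitA-) were past the fold between DEN+WAD and chow in whole libraries. A minimum of 5 CPM gave 1 (whole library) and 2 (mesenchymal cells) in the VitA+ gate, as it admits Itgb8, and TMM scaling gave 0 in those mesenchymal cells. Stellate-marked cells only gave 1 between the gates in chow and 4 in DEN+WAD, and turned 7 ratios, 4 of them of members past the fold: the VitA- DEN+WAD to chow ratios of Itga8 (1.17) and Itgb3 (0.391) and the chow gate ratios of Itga8 (0.790) and Itgb5 (0.978). Itgb5 also turned in the VitA- DEN+WAD to chow ratio (1.54). TMM turned 10 ratios of members not past the fold, and 25 repeats over 20 ratios turned in all. Causes beyond these were not tested. Of the repeats for ratios of single members, 538 lay within the counting interval of the reported value, and the rest outside it. No paired analysis was possible because each group was 1 library. Depth limits Itgb8 (11 UMIs) and Itgb3 (55 UMIs) in the chow libraries most.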
